A study of Mus musculus with 2 samples.

Results

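The genes of glucose uptake and glycolysis and the wider set of genes induced by low oxygen were followed in mouse ureter explants in which the secretion of WNT proteins had been blocked. With earlier results of these data known, 37 genes were chosen by name: 4 transporters of glucose and lactate, 16 glycolytic enzymes, 4 regulators of glycolytic flux, 12 other hypoxia-induced genes and *Hif1a*. They are 37 of 29924 gene names on the array, and their 63 probes are 63 of 39429. All 37 could be tested, among 20119 genes with a signal clearly above background.

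Ureters of wildtype NMRI embryos, a mouse outbred stock, were explanted at E11.5, and the sex of the embryos was not determined. In a culture of 18 h without serum, they received either 10 µM IWP-2, a small molecule that inhibits the acyltransferase PORCN and thereby the release of WNT proteins, or the solvent alone (DMSO, 2:1000). The medium of both groups was DMEM/F12 with GlutaMAX, antibiotics, nonessential amino acids and pyruvate. RNA of a treated and of a control pool, each made of many ureters and thus of epithelial and mesenchymal cells together, was hybridised on the same two-colour array, and there were 2 such arrays. The dye AlexaFluor647 marked the IWP-2 pool on replicate 1 and the control pool on replicate 2, with AlexaFluor555 on the respective partner. In RNA of whole explants, fewer cells of a type and less RNA per cell cannot be told apart.

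Cells take up glucose through facilitative transporters and split it in the cytosol into pyruvate, which is either oxidised in mitochondria or reduced to lactate and exported. The transcription factor HIF1A is made continuously and is marked for destruction by prolyl hydroxylases that need oxygen, so that it accumulates when oxygen is scarce. It then pairs with ARNT and binds the core motif ACGTG or GCGTG in the DNA of its target genes, which include most glycolytic enzymes, angiogenic factors and the hydroxylases themselves. Embryonic tissues are known for high glycolytic activity, and explants at the air-liquid interface depend on diffusion for their oxygen.

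To show this motif in the genes the results turn on, 80 bases from upstream of the transcription start are printed for 6 of them, *Egln3*, *Adm*, *Hk2* and *P4ha1* because of their values below, and *Ldha* and *Pgk1* as glycolytic enzymes with several matches. The sequences are those of RefSeq (GRCm38.p6) and run 5′ to 3′ on the strand of the gene. Capitals mark ACGTG or its reverse complement CACGT. Where both overlap they give the palindrome CACGTG, as in *Ldha*.
*Egln3*, chr12:54204045-54204124, minus strand: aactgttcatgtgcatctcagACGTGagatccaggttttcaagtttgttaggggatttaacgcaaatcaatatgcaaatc
*Adm*, chr7:110627577-110627656, plus strand: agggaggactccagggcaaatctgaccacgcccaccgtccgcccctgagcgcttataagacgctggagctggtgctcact
*Hk2*, chr6:82774467-82774546, minus strand: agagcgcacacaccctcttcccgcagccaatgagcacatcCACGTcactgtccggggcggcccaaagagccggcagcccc
*P4ha1*, chr10:59323216-59323295, plus strand: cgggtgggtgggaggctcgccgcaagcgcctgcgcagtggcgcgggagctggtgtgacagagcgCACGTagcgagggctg
*Ldha*, chr7:46845724-46845803, plus strand: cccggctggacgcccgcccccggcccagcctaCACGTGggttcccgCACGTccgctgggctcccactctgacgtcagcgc
*Pgk1*, chrX:106186929-106187008, plus strand: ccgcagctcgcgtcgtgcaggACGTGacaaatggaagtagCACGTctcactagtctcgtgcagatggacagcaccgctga
The capitals begin 229 bases before the start in *Egln3*, 52 bases in *Hk2* and 16 bases in *P4ha1*, and at 150 and 131 bases in *Pgk1*. *Adm* has no ACGTG upstream of its start and 2 matches to GCGTG. Promoter entries of 250 bases before to 50 bases after the start were given for 35 of the 37 genes, all but *Slc2a3* and *Ndrg1*. On either strand, ACGTG was found in 58.3% of the 48 member promoters and in 19.6% of all 32851 promoters. The 48 promoters belong to 35 genes, and some overlap. By gene, 10 of 11 other hypoxia genes and 9 of 16 glycolytic enzymes held ACGTG, against 21.8% of all 27025 genes with a promoter entry. The second form, GCGTG, whose matches can overlap those of the first, was found in 62.5% of member promoters and in 32.4% of all. A match describes these letters and not a bound site.

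All 12 markers of epithelium and all 12 of ureteric mesenchyme on the lists passed the filter for signal, as did 20119 of all 29924 gene names. Among the epithelial markers, 1 was not above background in every pool. Targets of canonical WNT signaling were lower with IWP-2, with 6 of 8 past a false discovery rate (FDR) of 0.05 in limma and a median log2 change of -1.06. These were *Fzd10* (-2.29), *Nkd1* (-1.31), *Apcdd1* (-1.27), *Sp5* (-1.12), *Tcf7* (-0.89) and *Lef1* (-0.89). The rest of the list, named here to complete it, did not pass. *Axin2* had -1.38 and -0.64 on the arrays (limma, adjusted p 0.0502) and *Notum* 0.07 and -0.26 (adjusted p 0.887). Over all genes, 1.15% were lower at FDR 0.05. The list of WNT targets was chosen with earlier results of these data known, so its count is not an independent check of the treatment. Median spot intensities were 618 and 680 in the AlexaFluor647 channels and 307 and 352 in the AlexaFluor555 channels, 68.6% to 70.7% of spots were well above background, and none were saturated. The treated and control pools came from separate explants, but nothing states how the explants were divided into pools. The p-values therefore rest on the spread between 2 arrays, which limma moderated with a spread pooled over all genes tested.

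The response of the 37 genes as a group was small. The limma fit over all 20119 genes placed 0 of them lower and 1 higher in IWP-2-treated ureters at FDR 0.05, where 1.15% and 0.611% of all genes passed. The 1 gene was *Egln3*. At an unadjusted p under 0.05, 2 of the 37 were lower (5.41%, against 4.74% of all genes) and 5 were higher (13.5%, against 8.67%). On both arrays, 9 were lower (24.3%, against 27.5% of all genes) and 14 were higher (37.8%, against 28.5%), and the remaining 14 had opposite signs on the 2 arrays. The median log2 ratio of IWP-2 over control was 0.08 for the 37 genes, with 0.03 on replicate 1 and 0.12 on replicate 2, and 0.00 for all genes tested. The mean of 36 of the 37 lay within 0.5 of 0 (97.3%, against 96.2% of all genes). By the filter of the study's methods, which asks for an intensity of 100 and a 2-fold change on both arrays, 0 of the 37 passed, against 0.204% of all gene names.

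**Figure D1:**
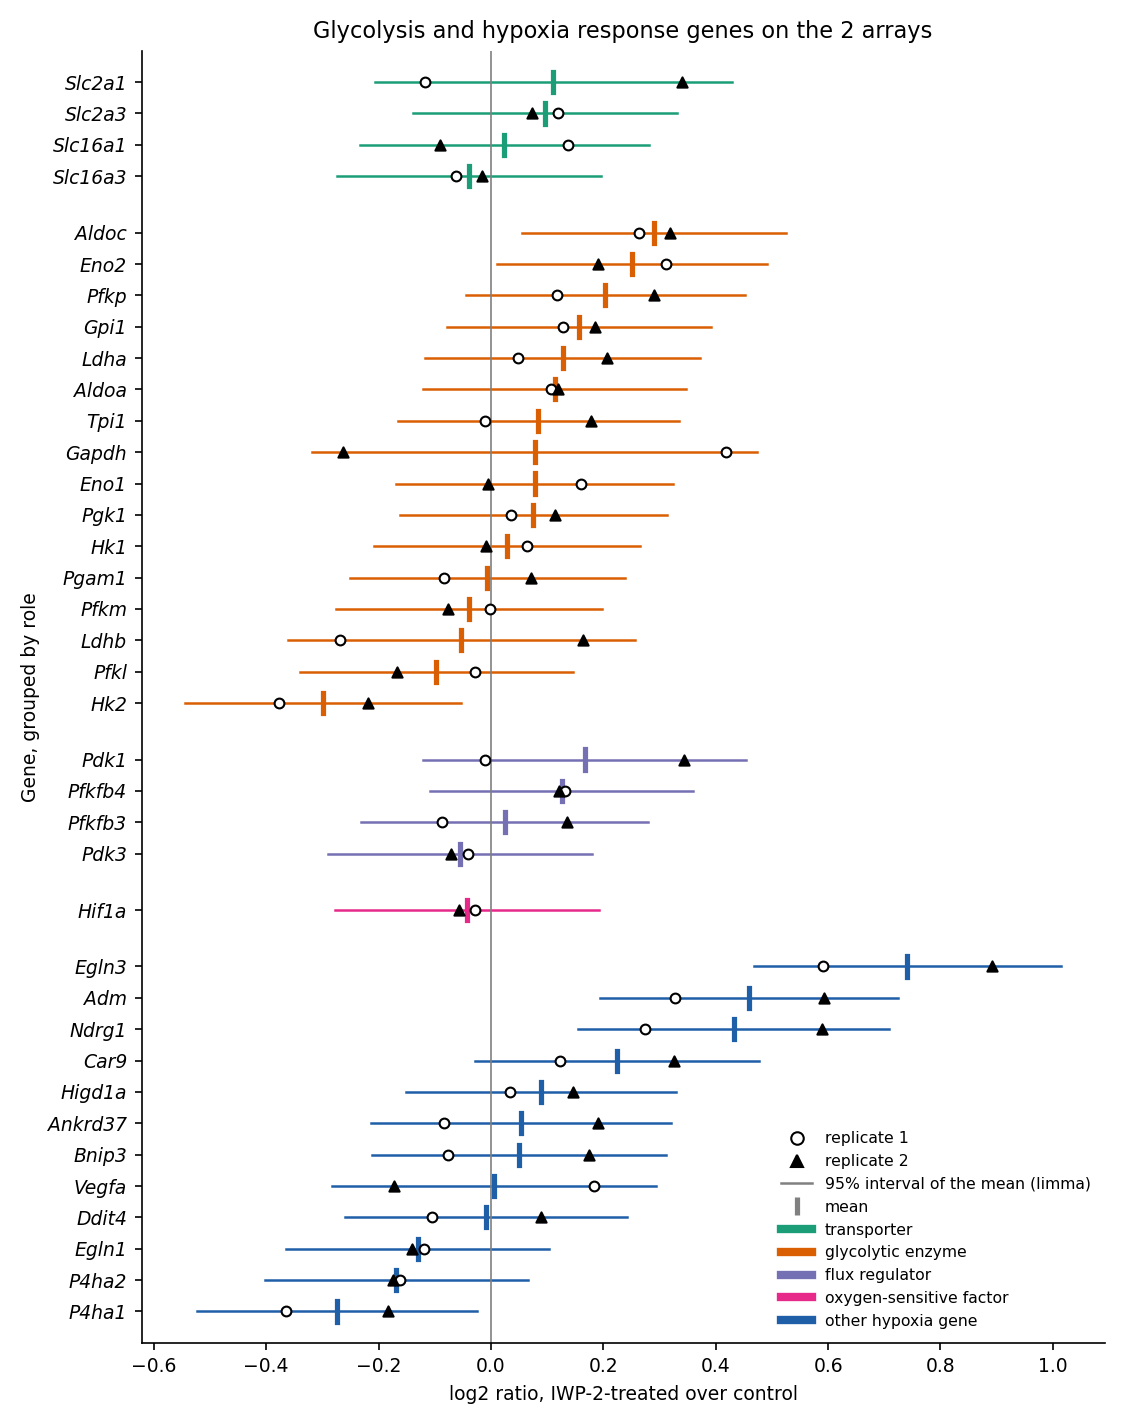
The log2 ratio of IWP-2-treated over control ureters (x axis) is shown for each of the 37 genes (y axis, grouped by role), with replicate 1 as open circles, replicate 2 as triangles, the mean as a tick and its 95% interval from limma as a line. *Egln3* is at the right edge with a mean of 0.74, and all 16 glycolytic enzymes have means between -0.30 and 0.29.

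The 4 transporters showed no change past the threshold. The intensities given here and below were normalized between the dyes of an array but not between the arrays. Pools of different arrays may therefore also differ in the brightness of the array. *Slc2a1*, the widely expressed glucose transporter GLUT1, had an intensity of 33727 in the control and 31100 in the IWP-2 pool of replicate 1, and of 33367 and 42223 on replicate 2. Thus its control pools were alike and its IWP-2 pools lay on either side of them, with log2 ratios of -0.12 and 0.34. The mean was 0.11 with a 95% interval of -0.21 to 0.43 (limma, adjusted p 0.884). *Slc2a3*, a glucose transporter of high affinity, had 0.12 and 0.07 on the 2 arrays. The lactate transporter *Slc16a1* had 0.14 and -0.09, and *Slc16a3*, the hypoxia-induced exporter of lactate, had -0.06 and -0.02. The intervals of all 4 ran from -0.27 to 0.43 in log2.

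The 16 glycolytic enzymes had a median log2 ratio of 0.08, with 0.06 on replicate 1 and 0.12 on replicate 2. Of these, 7 were higher on both arrays, 3 were lower on both and 6 had opposite signs, and none passed FDR 0.05 in limma. At an unadjusted p under 0.05, 1 was lower and 2 were higher. Over all genes, 28.5% were higher and 27.5% lower on both arrays, and 8.67% were higher and 4.74% lower at that p. Their 95% intervals together ran from -0.54 to 0.53. Hence a 2-fold change, which is 1 in log2, lay outside the interval of every enzyme. Values on single arrays depended on the normalization for the dye, since centring on the array median without loess gave medians of 0.43 on replicate 1 and -0.37 on replicate 2, and again 0.08 for the mean of both.

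In the first step, glucose is phosphorylated by hexokinases. *Hk2*, the inducible hexokinase, with a probe on chromosome 6 at 82675056 to 82675115 (mm9), had an intensity of 4659 in the control and 3587 in the IWP-2 pool of replicate 1, and of 4925 and 4232 on replicate 2. Both IWP-2 pools were below both control pools. The log2 ratios were -0.38 and -0.22 with a mean of -0.30 (0.81-fold, 95% interval 0.69 to 0.96; limma, p 0.0244 and adjusted p 0.266). *Hk1*, the constitutive hexokinase of many tissues, had 0.07 and -0.01 with its brightest probe. Its other probes had means of 0.26 and 0.04. *Gpi1*, which converts glucose-6-phosphate to fructose-6-phosphate, had a mean of 0.16.

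The 3 phosphofructokinase genes encode subunits of the committed step. *Pfkl*, the liver type, had a mean of -0.10, *Pfkm*, the muscle type, -0.04, and *Pfkp*, the platelet type, 0.20 (limma, adjusted p 0.503). The 2 probes of *Pfkp* disagreed. The brighter had log2 ratios of 0.12 and 0.29 and the dimmer, with intensities of 121 to 166 over the 4 pools, had -0.45 and -0.14, so its direction depends on the probe. Of the aldolases, which split the 6-carbon sugar, *Aldoa* had 0.11 and 0.12. *Aldoc*, an aldolase known from brain, had an intensity of 1574 in the control and 1889 in the IWP-2 pool of replicate 1, and of 2110 and 2630 on replicate 2. It was higher with IWP-2 within each array, by 0.26 and 0.32 (mean 0.29; limma, adjusted p 0.258), but the control pool of replicate 2 was above the IWP-2 pool of replicate 1.

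The later enzymes had values near 0 or values that differed between the arrays. *Tpi1*, which interconverts the triose phosphates, had a mean of 0.08 and *Pgk1*, the first enzyme to yield ATP, also of 0.08. *Pgam1*, the phosphoglycerate mutase, had -0.01. *Eno1*, the ubiquitous enolase, had 0.16 and -0.01. *Eno2*, the enolase of neurons, had an intensity of 4824 in the control and 5985 in the IWP-2 pool of replicate 1, and of 5135 and 5861 on replicate 2. Both IWP-2 pools lay above both control pools, with log2 ratios of 0.31 and 0.19 (mean 0.25; limma, p 0.0433 and adjusted p 0.35). For the lactate dehydrogenases, *Ldha*, the hypoxia-induced form, had 0.05 and 0.21, whereas *Ldhb* had -0.27 and 0.16. The 9 markers of nerve that were higher on both arrays, out of 10, are given with the cell type lists.

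*Gapdh*, often used as a reference gene, differed more between the arrays than any other glycolytic enzyme. Its brightest probe gave 193815 in the control and 259016 in the IWP-2 pool of replicate 1, and 216950 and 180787 on replicate 2. The pool labelled with AlexaFluor647 was the higher on both arrays. The log2 ratios were 0.42 and -0.26 (mean 0.08), and *Gapdh* was the only one of the 37 genes with an unadjusted p under 0.05 in a fit for changes that followed the dye (limma, p 0.0375, adjusted p 1.00). In the positions of the files (mm9), this probe lies on chromosome 7 (59003199 to 59003257), as does 1 more, whereas 7 probes named *Gapdh* lie on chromosome 6. Signal from near-identical copies cannot be separated from that of the gene itself. Of the 7 probes on chromosome 6, 6 were higher on replicate 1 and all 7 were lower on replicate 2, and over all 9 probes the means ran from -0.13 to 0.10.

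**Figure D2:**
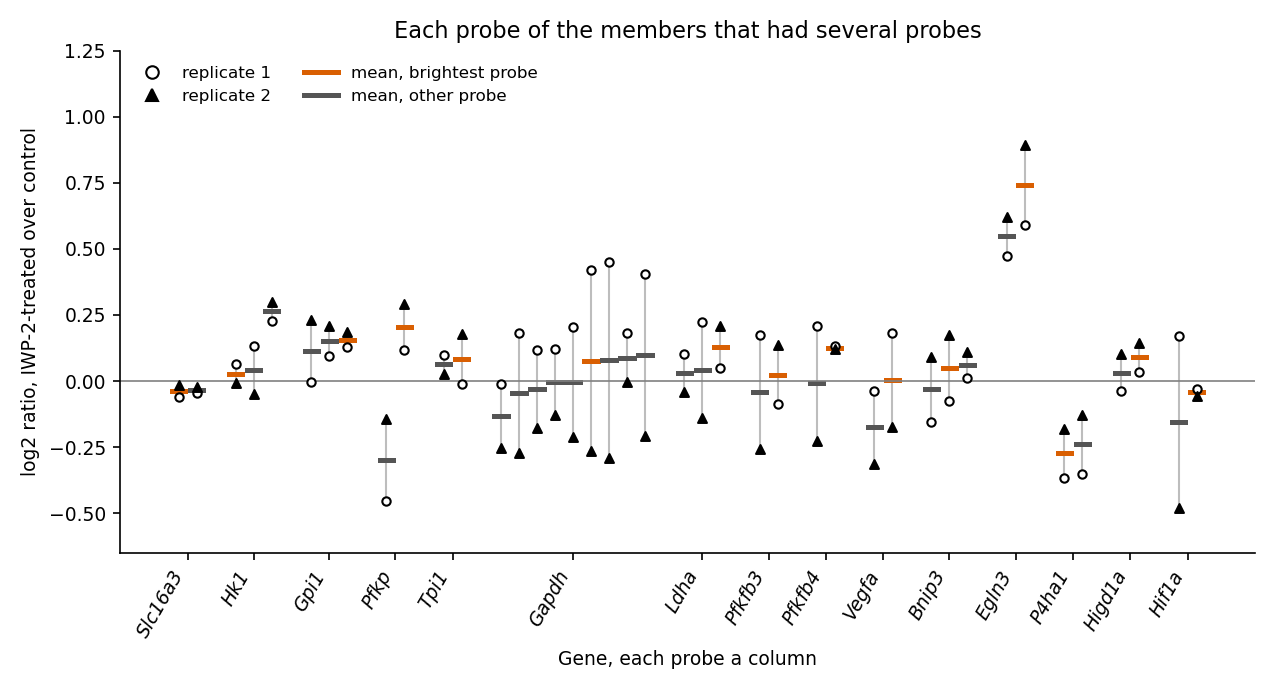
Each column is 1 probe of the 15 genes that had several probes (x axis), with its log2 ratio of IWP-2 over control (y axis) on replicate 1 (open circles) and replicate 2 (triangles) and the mean as a bar, orange for the probe used. Both probes of *Egln3* are above and both of *P4ha1* below 0 on both arrays, the 2 probes of *Pfkp* are on opposite sides, and the 9 probes of *Gapdh* spread between the arrays.

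The regulators of flux also stayed below the threshold. *Pfkfb3* and *Pfkfb4*, which make and degrade fructose-2,6-bisphosphate, an activator of phosphofructokinase, had means of 0.02 and 0.13. *Pdk1*, a kinase that shuts pyruvate out of the mitochondrial oxidation, had log2 ratios of -0.01 and 0.34 and *Pdk3*, a related kinase, -0.04 and -0.07. The intervals of the 4 ran from -0.29 to 0.45. Both *Pfkfb* genes had a dimmer probe with the opposite sign of the mean.

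*Hif1a*, the oxygen-sensitive factor itself, had an intensity of 20272 in the control and 19865 in the IWP-2 pool of replicate 1, and of 23108 and 22223 on replicate 2. The pools of 1 array were closer to each other than to those of the other array. The log2 ratios were -0.03 and -0.06, with a 95% interval of the mean from -0.28 to 0.19 (limma, adjusted p 0.961). These are transcripts, and HIF1A protein was not measured.

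The other 12 hypoxia-induced genes had a similar median, 0.05, but a wider spread. Their quartiles lay at -0.04 and 0.28, whereas those of the glycolytic enzymes lay at -0.01 and 0.13. The median SD between arrays was 0.16, against 0.10 for the enzymes and 0.11 for all genes. In limma 1 gene passed FDR 0.05, and at an unadjusted p under 0.05 there were 1 lower and 3 higher genes. At that p, 4.74% of all genes were lower and 8.67% higher.

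*Egln3*, which encodes the prolyl hydroxylase PHD3 and is itself induced by HIF, was the gene that rose. Its intensity was 421 in the control and 634 in the IWP-2 pool of replicate 1, and 349 and 647 on replicate 2. The 2 IWP-2 pools were nearly alike and both lay above both control pools, in intensities that were not normalized between the arrays. The log2 ratios of 0.59 and 0.89 gave a mean of 0.74 ± 0.21 (SD, n = 2 arrays), which is 1.67-fold with a 95% interval of 1.38 to 2.02 (limma, p 0.000447 and adjusted p 0.0361). A second probe, 0.47 and 0.62 on the arrays, gave a mean of 0.55. The probes lie on chromosome 12 at 55280953 to 55281012 and 55281252 to 55281311 (mm9). The call was lost without background correction (adjusted p 0.0537), with the scanner software's processed intensities (0.0622) and without the filter on dim probes (0.0887), and also with a dye term in a model of the separate channels (0.273), in each case in limma. The other hydroxylase of the set, *Egln1*, had -0.12 and -0.14.

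*Adm*, which encodes the vasodilator adrenomedullin, and *Ndrg1*, a gene of growth arrest and stress, had the next largest means but did not pass FDR 0.05. *Adm*, with a probe on chromosome 7 at 117773088 to 117773147 (mm9), had an intensity of 805 in the control and 1010 in the IWP-2 pool of replicate 1, and of 722 and 1088 on replicate 2. Its log2 ratios were 0.33 and 0.59, with a mean of 0.46 and a 95% interval of 0.19 to 0.72 (limma, p 0.00495 and adjusted p 0.119). *Ndrg1*, with a probe on chromosome 15 at 66761057 to 66761116, had 2811 and 3400 on replicate 1, and 2483 and 3737 on replicate 2. Both genes were thus higher in both IWP-2 pools than in both control pools. The log2 ratios of *Ndrg1* were 0.27 and 0.59, with a mean of 0.43 and a 95% interval of 0.16 to 0.71 (limma, p 0.00824 and adjusted p 0.154).

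**Figure D3:**
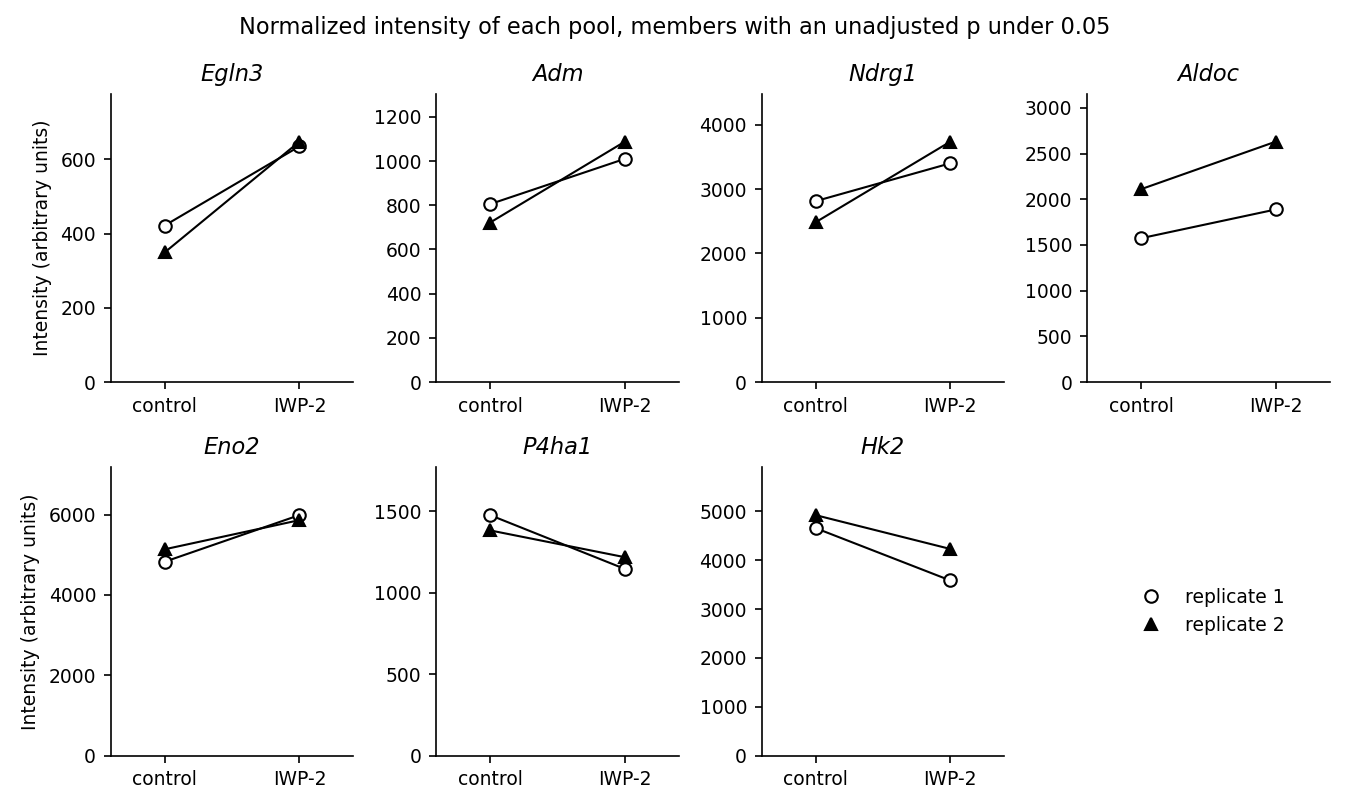
Background-corrected and loess-normalized intensity in arbitrary units (y axis, from 0, a separate scale for each gene) in the control and IWP-2 pools (x axis) of replicate 1 (open circles) and replicate 2 (triangles) for the 7 genes with an unadjusted p under 0.05, each line joining the pools of 1 array. *Egln3* goes from 421 to 634 and from 349 to 647, and of the 7 genes only *Aldoc* has overlapping control and IWP-2 pools. Intensities were not normalized between the arrays.

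The collagen prolyl 4-hydroxylases, which need oxygen and act in the endoplasmic reticulum, were on the lower side. *P4ha1*, with a probe on chromosome 10 at 58835625 to 58835684 (mm9), had an intensity of 1475 in the control and 1145 in the IWP-2 pool of replicate 1, and of 1381 and 1217 on replicate 2. The IWP-2 pools were below both control pools. The mean was -0.27 (0.83-fold, 95% interval 0.70 to 0.98; limma, p 0.0357 and adjusted p 0.319), and a second probe gave -0.24. *P4ha2* had -0.16 and -0.17.

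The remaining hypoxia genes did not stand apart from 0. *Vegfa*, the angiogenic growth factor, had an intensity of 9480 in the control and 10765 in the IWP-2 pool of replicate 1, and of 10825 and 9601 on replicate 2. The arrays thus went opposite ways, with log2 ratios of 0.18 and -0.17, and the mean was 0.01 with a 95% interval of -0.28 to 0.29. *Bnip3*, a gene of mitophagy, had -0.08 and 0.17. *Ddit4*, an inhibitor of mTORC1, had -0.11 and 0.09, *Ankrd37* had -0.08 and 0.19, and *Higd1a*, a mitochondrial protein gene, had 0.03 and 0.15. *Car9*, a carbonic anhydrase of the cell surface and a common marker of hypoxic tissue, had 0.12 and 0.33 at intensities of 207 to 259 over the 4 pools (mean 0.22; limma, adjusted p 0.454).

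**Figure D4:**
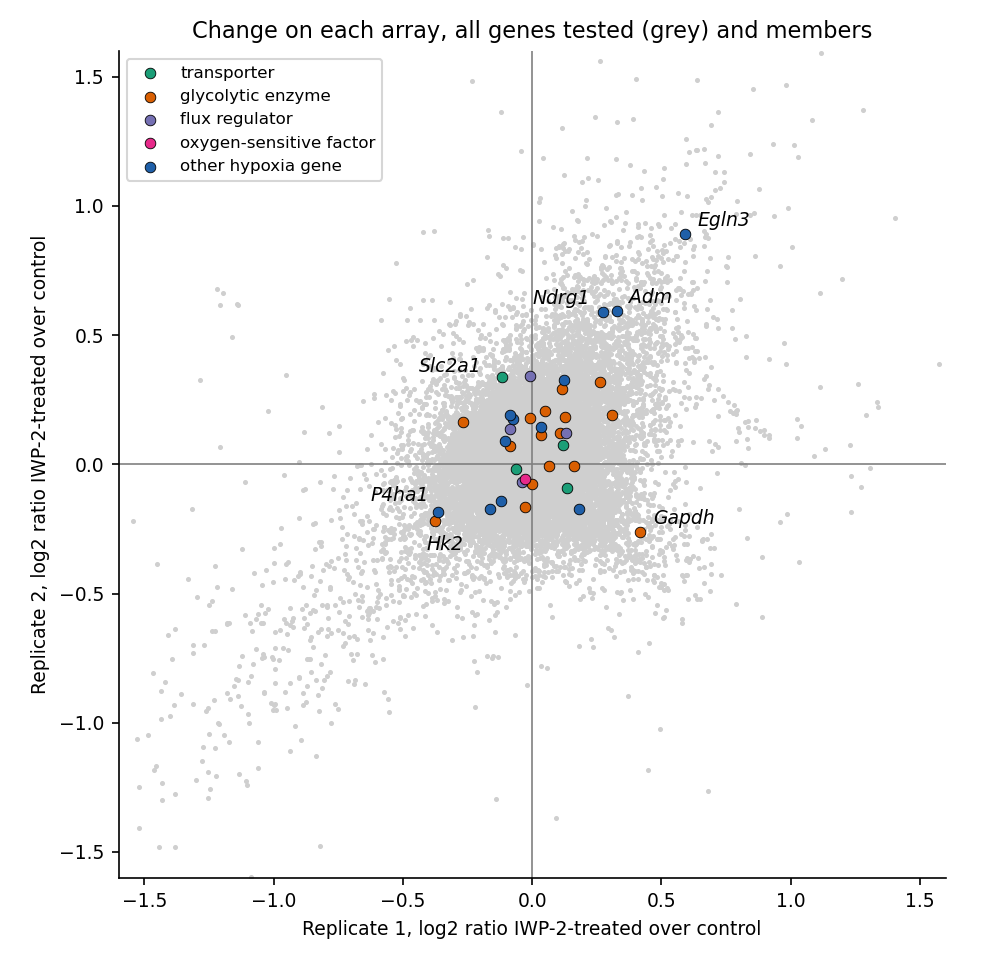
The log2 ratio of IWP-2 over control on replicate 1 (x axis) is plotted against that on replicate 2 (y axis) for all genes tested (grey, 57 of them outside the axes) and the 37 genes (coloured by role). *Egln3* lies at 0.59 and 0.89, *Gapdh* at 0.42 and -0.26, and most of the 37 genes lie inside the cloud of all genes.

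Other genes of the pathways were counted in the same fit, where 4.74% of all genes were lower and 8.67% higher at an unadjusted p under 0.05. Of 25 further glycolysis genes, 0 passed FDR 0.05 in limma, 0 were lower and 4 higher at an unadjusted p under 0.05, and their median was 0.06. The 4 with the largest means were *Pdk4* (0.57), a kinase of pyruvate dehydrogenase, with 0.25 and 0.88 on the arrays, *Hk3* (0.33), *Ldhd* (0.30) and the lactate transporter *Slc16a7* (0.27). *Pkm*, the pyruvate kinase of embryonic tissue, which was named here after its value was seen, had -0.01. The 23 genes of pyruvate oxidation and the TCA cycle had a median of 0.06 and a largest mean of 0.21, for *Mdh1*, and 0 passed in either direction at FDR 0.05 or at an unadjusted p under 0.05. The 7 genes of the pentose phosphate pathway had a median of -0.03, and the 3 tested genes of gluconeogenesis had -0.06, also with 0 past either threshold.

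At FDR 0.05 in limma, 0.611% of all genes were higher and 1.15% lower. Among 12 components of the HIF pathway, *Epas1*, which encodes HIF2A, was the 1 that passed this threshold. It had 0.56 and 0.67 on the arrays (mean 0.61, adjusted p 0.0418), and the median of the 12 was 0.02, or -0.01 with centring on the median. Of 45 further hypoxia-induced genes, with a median of 0.04, only *Cxcr4*, a chemokine receptor, passed, with 0.55 and 0.79 (mean 0.67, adjusted p 0.0416). At an unadjusted p under 0.05, 3 of the 45 were lower and 8 higher, against 4.74% and 8.67% of all genes. Of 11 genes of the integrated stress response, 2 passed and were higher, *Chac1* (0.92) and *Cebpb* (0.78), and the median was 0.16. At an unadjusted p under 0.05, 1 of the 11 was lower and 4 were higher.

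Lists of markers of cells other than those of the ureteric wall had medians above 0. They are given because *Egln3*, *Adm*, *Ndrg1*, *Epas1* and *Cxcr4* were also higher. Hypoxia-induced genes did not all move this way. Of the 45 further ones, 17 were higher and 11 lower on both arrays, with *Pgf* (-0.50) and *Lox* (-0.45) named here as the lowest. Over all genes, 28.5% were higher on both arrays and 0.611% were higher at FDR 0.05. All 12 endothelial markers were higher on both arrays, with a median of 0.48, and *Sox17* (0.90), *Kdr* (0.74) and *Cldn5* (0.65) passed FDR 0.05 in limma. Their summed intensity was 80394 to 104274 in the control and 128115 to 142891 in the IWP-2 pools. All 10 macrophage markers were higher on both arrays as well, with a median of 0.46, *Adgre1* (0.92) past FDR 0.05, and summed intensities of 50488 to 61940 and 71231 to 80440. The 10 nerve markers had a median of 0.37, with 9 higher on both arrays (5 with centring on the median) and 0 past FDR 0.05, and sums of 261036 to 273762 and 356734 to 360525. The 10 red blood cell markers had a median of 0.49, but 0.11 on replicate 1 and 0.83 on replicate 2, with sums of 432202 to 732807 and 615386 to 923980. Of these 10, 6 were higher on both arrays, 4 had opposite signs and 0 passed FDR 0.05. The filter kept only markers with signal above background in both treated or both control pools. Among those of these lists, 1 macrophage marker was not above background in every pool. The part of these cells in the values of *Egln3*, *Adm*, *Ndrg1*, *Aldoc* and *Eno2* was not tested.

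**Figure D5:**
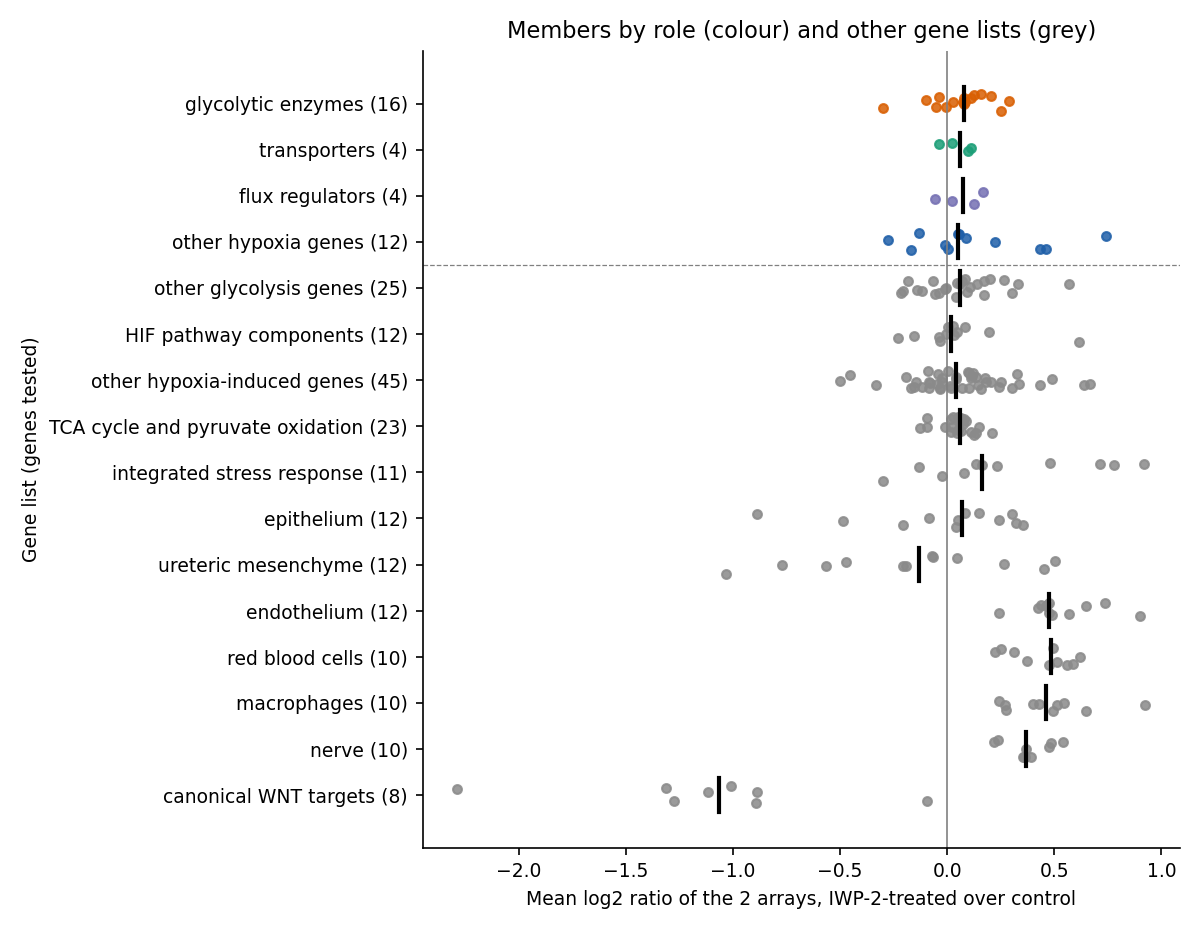
Mean log2 ratio of IWP-2 over control on the 2 arrays (x axis) for each gene (points) of the members by role (colour, top) and of 12 other lists (grey), with the number of genes tested in brackets (y axis) and the median of each list as a black line. The 4 groups of members have medians of 0.05 to 0.08, those of endothelium, red blood cells, macrophages and nerve are 0.37 to 0.49, and that of the WNT targets is -1.06.

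Markers of the ureteric tissue itself did not move together. The 12 epithelial markers had a median of 0.07 with 0 past FDR 0.05 in limma, and the largest mean was that of *Shh* (-0.89). At an unadjusted p under 0.05, 2 of these 12 were lower and 3 higher. The 12 markers of ureteric mesenchyme had a median of -0.13, and *Tbx18* (-1.03) and *Tcf21* (-0.77) passed FDR 0.05 and were lower. At an unadjusted p under 0.05, 4 of the 12 were lower and 2 higher. The 8 markers of kidney mesenchyme had a median of 0.08, with 0.16 on replicate 1 and -0.29 on replicate 2. Of these, *Meox1* (0.96) passed and was higher, while 2 were lower and 1 higher at an unadjusted p under 0.05 in limma. Over all genes, 1.15% were lower and 0.611% higher at FDR 0.05, and 4.74% lower and 8.67% higher at that p. The 12 cell cycle genes had a median of 0.12 with 0 past FDR 0.05 or an unadjusted p under 0.05.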

How the data were processed

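Per the file headers, the deposited scanner files give spot and local background intensity for either dye, written by Feature Extraction 12.2.0.7 (the labels name 10.7.3.1), with marks for outlier, saturated and background-level spots and an intensity that the software had corrected and normalized. The deposited table of the series gives a score per probe, the authors' fold change with its sign, rounded to 1 decimal, and was used as an alternative only. Probe positions are those of the files (mm9).

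Mean intensities were corrected with normexp (offset 50) and log2 ratios were normalized by loess (span 0.3, 4 iterations, control spots without weight) in limma 3.58.1 under R 4.3.3 with the package data.table, version 1.17.8. Outlier spots were dropped and the spots of a probe, 4 at most, were averaged. A probe was kept if over a share of 0.5 of the spots exceeded background clearly for the treated pools, or for the control pools, of both arrays, and the brightest kept probe stood for a gene. Treated and control channels were assigned from the dyes in the labels. The printed intensities were not normalized between the arrays. The functions lmFit and eBayes were fitted with 1 residual degree of freedom and Benjamini-Hochberg adjustment over all genes tested. A dye term would leave no residual degree of freedom in this fit, so changes that followed the dye were fitted on their own (0 genes at FDR 0.05 and 438 at an unadjusted p under 0.05 in limma). The number of arrays limits the precision. The procedure was tested on simulated data.

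The 37 genes, their roles and the 16 other lists were chosen with earlier results of these data known. All 37 genes are named, and of the other lists the genes past FDR 0.05 or else up to 4 with the largest means, unless stated. The alternatives covered the background correction, the normalization, the filter on dim probes, the choice of probe, the prior, a dye term, the series table, the threshold and single arrays. RefSeq promoters of 300 bases were searched for ACGTG and GCGTG on both strands.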

Additional observations from a re-analysis of the deposited data

How the results depend on the processing

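The medians kept their sign under each alternative with both arrays: 0.06 to 0.08 for the glycolytic enzymes, 0.03 to 0.07 for the other hypoxia genes and 0.05 to 0.08 for all 37 genes. On single arrays they ran from 0.06 to 0.12, from -0.02 to 0.16 and from 0.03 to 0.12. The number of the 37 genes higher at FDR 0.05 in limma, 1 in the report, was 0 with processed intensities, without background correction, with median centring, without the filter on dim probes, with a dye term in separate channels and at FDR 0.01. At FDR 0.01 the threshold is stricter and without the filter more genes are tested, and for the other settings the cause was not tested. It stayed 1 with the mean of all probes (*Egln3* 0.64, adjusted p 0.0271 in limma), with a trend or a trend and robust prior and with R's own loess routine, an alternative chosen after seeing the data. With the rounded series table, limma placed 3 genes lower and 4 higher, each with the same rounded value of 1.1-fold on both arrays and so without spread, and *Egln3* was not among them (0.92, adjusted p 0.311). The mean of *Egln3* ran from 0.64 to 0.92 and stayed above 0 in all of these. Lower genes at FDR 0.05 numbered 0 in each alternative other than the series table, and in the report's fit 2 of the 37 were lower at an unadjusted p under 0.05 in limma. Over all genes, limma gave 232 lower and 123 higher at FDR 0.05, but 36 and 7 with median centring, 98 and 21 without the filter on dim probes, 0 and 0 with the dye term, 333 and 326 with R's loess, and 1323 and 1037 with the series table. The filter on intensity and fold passed 0 to 1 of the 37 genes on single arrays, and 0 at a fold of 1.5 or with an intensity of 100 in both channels. The sign of the mean turned in at least 1 alternative with both arrays for *Pfkp*, *Pgam1*, *Pfkfb3*, *Vegfa* and *Ddit4*, none of them past the threshold. Each array already pairs 1 treated with 1 control pool, so the fit of the ratios is paired by array. Whether the pools of an array were also matched by embryo or litter is not stated.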
